A study of Mus musculus with 12 samples.

Results

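The mouse major histocompatibility complex (MHC) on chromosome 17 is best known for antigen-presenting genes, yet many of its protein-coding genes do other work. Between and around the class I and class II genes lies one of the most gene-dense stretches of the genome, with housekeeping genes for transcription, splicing, translation and protein folding beside tumor necrosis factor family cytokines, complement genes, an inducible Hsp70 pair and, at the centromeric side, a cluster of zinc finger genes. The genes described here are those other genes. They were taken as the protein-coding genes that start at 33 to 37 Mb of chromosome 17 (GRCm38) and have 10 or more counts in 6 or more of the 12 libraries, after leaving out symbols that start with H2-, Rps, Rpl, Nduf, Trim, Vps, Col or Atp6v and Tap1, Tap2, Tapbp, Psmb8, Psmb9, C4b and Cfb. Of 185 protein-coding genes in the interval, 51 were left out by symbol and 35 had too few counts, which left 99 genes of the 55487 in the count table. All 99 were also among the 16225 genes that passed the expression filter of the test.

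RNA from 12 mouse melanoma tumors was sequenced in bulk. The genotype label of all of them gives BrafCA and Cdkn2a f/f, a conditional Braf allele and floxed Cdkn2a, and the tumors fall into 6 without a further allele (wild type) and 6 with Arf6 f/f in addition (Arf6-null). ARF6, the product of that gene, is a small GTP-binding protein that steers membrane traffic at the cell surface and in endosomes. Each title carries a different number, taken here as a tumor number. In order of library these were 5526, 5527, 5548, 7657, 20681 and 5588 in wild type, and they ran from 19836 to 20570 in Arf6-null. The labels used here name no Cre driver, age or animal for any tumor, so the p-values rest on the spread among these libraries, which may be partly technical. The level of Arf6 was 84.2 to 147 CPM (counts scaled by library size) in the wild-type libraries and 12.2 to 22.5 CPM in the Arf6-null libraries, with no overlap (log2 fold change -2.60, SE 0.18, edgeR adjusted p = 0.000101).

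Library totals ran from 21007954 to 45688253 counts, and the 99 genes held 0.594 to 0.759% of them. Libraries were numbered 1 to 6 for wild type and 19 to 24 for Arf6-null, so a preparation round cannot be told apart from the genotype. Of 9 melanocyte markers 3 passed the expression filter, Mlana had 0 counts in all libraries, and their summed level was 22.6 to 52.9 CPM in wild type and 11.2 to 35.9 CPM in Arf6-null. Summed skeletal muscle markers were at 26.3 to 2245 CPM in wild type, with libraries 3, 4 and 5 highest, and at 5.93 to 63.0 CPM in Arf6-null. The summed level of 4 Y-linked genes was 0 to 248 CPM in wild type (median 11.3) and 0.444 to 218 CPM in Arf6-null (median 193). In wild type it was 203 and 248 CPM in libraries 2 and 4 and 0 to 22.3 CPM in the others. In Arf6-null it was 0.444 CPM in library 6 and 148 to 218 CPM in the others, so the genotypes were uneven in Y-linked expression. Summed keratinocyte markers were at 3.51 to 9.64 CPM in wild type and 3.82 to 23.3 CPM in Arf6-null, and summed B cell markers at 1.69 to 9.25 CPM and 1.11 to 4.52 CPM. In bulk RNA, fewer cells of a type and less RNA per cell cannot be told apart.

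Few of the 99 genes passed the test of a difference between the genotypes. Across all 16225 genes tested, 1.15% passed an adjusted p of 0.05 in the quasi-likelihood test of edgeR, 0.586% higher and 0.561% lower in Arf6-null tumors. Among the 99 genes 2 rose in the Arf6-null tumors, Gtf2h4 and 2310061I04Rik, and 0 fell. At an unadjusted p under 0.05, 22 of the 99 were higher, against 11.0% of all genes tested, and 10 were lower, against 12.4%. At an adjusted p under 0.1, 12 were higher, against 3.95% of all genes, and 3 were lower, against 4.43%. The levels of 6 genes lay higher in every Arf6-null library than in any wild-type library, which 1.15% of all tested genes did, and those of 1 gene lay lower, which 1.21% did. The fold change was positive for 60 of the 99 genes and negative for 39 (60.6% positive, against 47.2% of all genes tested). Its median was 0.06 on the log2 scale, against -0.03 over all genes tested. A change of 1 or more in either direction was found for 9 of the 99, and for 1826 of all 16225 genes tested. The calls depended on single libraries, for the 99 genes as for all genes. Leaving out wild-type library 1, wild-type library 6 or Arf6-null library 1 left 0 of the 99 called, and 0.164, 0.165 and 0.152% of all genes tested. Leaving out wild-type library 3 or 4 or Arf6-null library 2 left 1 higher. Leaving out wild-type library 2 gave 8 higher and 1 lower, with 4.69% of all genes called, and leaving out wild-type library 5 or Arf6-null library 6 gave 3 higher and 1 lower, with 3.27 and 4.12% of all genes called.

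Within a genotype the levels of most of these genes lay close together. The highest library of a genotype exceeded the lowest by a median of 1.59-fold in wild type and 1.57-fold in Arf6-null (computed on CPM + 0.1), against 1.93-fold and 1.85-fold over all genes tested. Levels per kilobase of exon covered a wide range. The highest were those of Clic1, a chloride intracellular channel protein, at 307 CPM per kb in wild type and 282 in Arf6-null, and of Tubb5, a beta tubulin, at 309 and 248 CPM per kb. The immediate early response gene Ier3 followed at 98.5 and 141 CPM per kb and the splicing and export helicase Ddx39b at 75.2 and 73.2 CPM per kb. The lowest level was that of Cdsn, the corneodesmosin gene of the epidermis, at 0.103 and 0.123 CPM per kb. It was also the gene nearest the count limit, with 10 or more counts in 6 libraries. Just outside were Gm11127 and Ly6g6d, with 10 or more counts in 4 libraries, and Hspa1l and Pram1, with as many in 3.

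**Figure D1:**
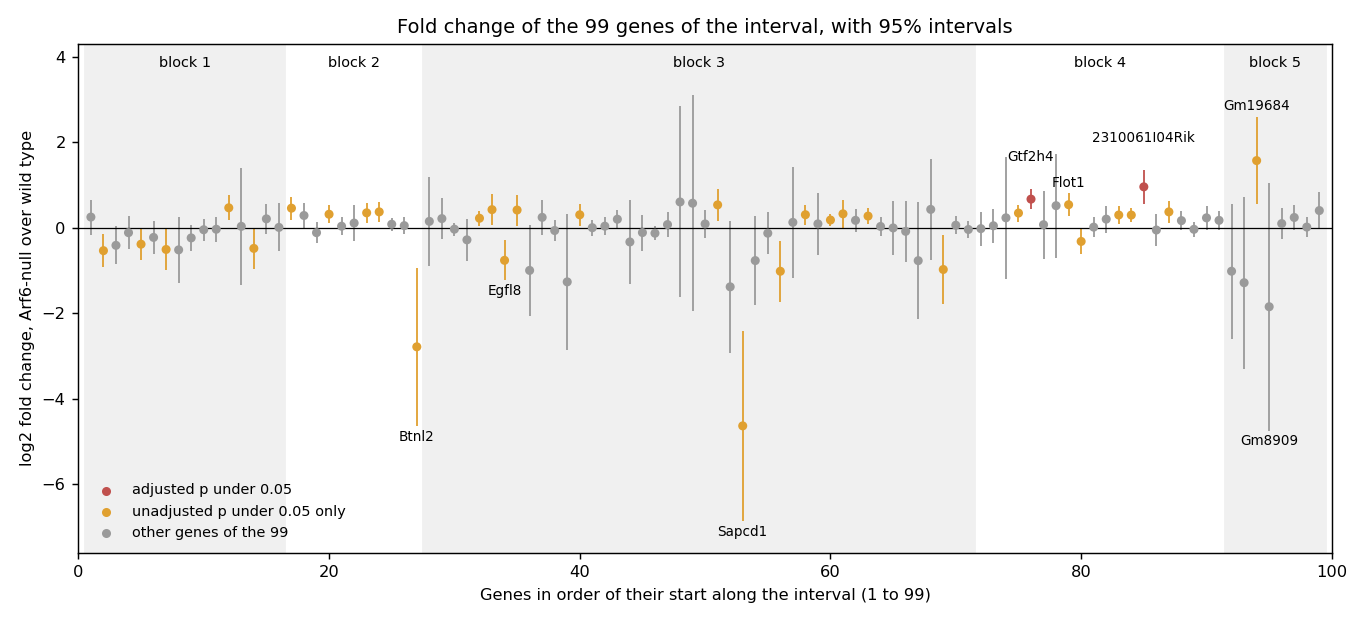
Log2 fold change of each of the 99 genes (Arf6-null over wild type, points) with its 95% interval (lines), in order of start position, over blocks 1 to 5 (shaded in turn). Gtf2h4 and 2310061I04Rik, the genes past an adjusted p of 0.05, both lie in block 4, and the widest intervals belong to genes of blocks 2, 3 and 5.

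Position in the interval was described with 5 blocks of neighbouring genes. Over all genes tested, 47.2% had a positive fold change and the median was -0.03 on the log2 scale. In block 1, from Zfp763 to Kifc1, 5 of 16 genes had a positive fold change, with a median of -0.17. In block 2, from Daxx to Btnl2, 9 of 11 were positive, with a median of 0.11. Block 3, from Notch4 to Ddx39b, holds 44 genes, of which 25 were positive, and had a median of 0.05. Block 4, from Tcf19 to Gnl1, had 16 of 20 genes positive, a median of 0.22, both of the genes that rose and 4 of the 6 genes whose levels were all higher in Arf6-null. In block 5, from Gm6034 to Znrd1as, 5 of 8 were positive and the median was 0.06. Of the 16225 genes tested, 0.586% rose and 0.561% fell. Of the genes of the same interval that were left out by symbol, 38 were tested, and 5 of them rose (Ndufa7, Rps18, H2-Eb1, H2-T23 and H2-T22) and 0 fell. Among protein-coding genes of chromosome 17 outside the interval, 553 were tested, of which 4 rose and 2 fell, with a median log2 fold change of -0.01. The 4 Mb before the interval had 52 tested genes, of which 1 fell, the zinc finger gene Zfp799 (log2 fold change -0.75, edgeR adjusted p = 0.0496), and the 4 Mb after it had 11, of which none passed.

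The largest role group was the 18 genes of transcription and chromatin. In it 1 gene rose, 3 were higher and 0 lower at an unadjusted p under 0.05, 12 had a positive fold change and the median was 0.06. The shares over all genes tested were 0.586% risen, 11.0% higher and 12.4% lower at that unadjusted p, and 47.2% positive. The gene that rose was Gtf2h4, which encodes a subunit of TFIIH, the complex that opens DNA at promoters and in nucleotide excision repair. It lies at chromosome 17, 35667730 to 35673739, on the minus strand, and no annotated gene overlaps its exons. Its promoter is shown because Gtf2h4 is the gene with the smallest p of the 99. The 250 bases before its start, chr17:35673744-35673993 (minus strand, RefSeq, GRCm38.p6), hold the letters CCAAT at -137 and -57, counted back from the start to the first letter and written in capitals.
Gtf2h4: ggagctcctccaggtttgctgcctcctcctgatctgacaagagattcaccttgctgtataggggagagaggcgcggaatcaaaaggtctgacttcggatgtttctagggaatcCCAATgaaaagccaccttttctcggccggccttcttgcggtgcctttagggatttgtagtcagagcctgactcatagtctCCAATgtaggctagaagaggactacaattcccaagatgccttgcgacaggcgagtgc
The CCAAT box, searched on both strands, was found in 33.85% of all 32851 RefSeq promoters and in 34.51% of the 113 promoter entries that matched 82 of the 99 genes.

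In the wild-type libraries Gtf2h4 was at 13.4, 15.8, 15.9, 17.6, 14.7 and 15.2 CPM, in order of library. In the Arf6-null libraries it was at 25.4, 20.9, 28.5, 23.8, 22.3 and 26.3 CPM. Every Arf6-null library was above every wild-type library, and the spread within each genotype was small (15.4 ± 1.42 against 24.5 ± 2.76 CPM, mean ± SD, n = 6 each). The log2 fold change was 0.67 with an SE of 0.11 (edgeR adjusted p = 0.0213). It was 0.66 with Y-linked expression as a covariate (adjusted p = 0.0629) and 0.74 without the 3 muscle-rich wild-type libraries (adjusted p = 0.0800). These fits called 0.185 and 0.206% of all genes tested, against 1.15% in the main fit. The call of Gtf2h4 was lost in both. It was also lost without wild-type library 1 (adjusted p = 0.0537), wild-type library 6 (0.0550) or Arf6-null library 1 (0.0555), and was kept in the other 9 fits that left out 1 library.

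Other genes of this group stayed short of the threshold. Daxx encodes a histone chaperone that works with Atrx and also binds death receptor signalling proteins. Its level was 23.6 to 35.9 CPM in wild type (median 29.1) and 37.5 to 43.3 CPM in Arf6-null (median 40.4), without overlap (log2 fold change 0.46, SE 0.12, adjusted p = 0.0698). Of the 12 fits that left out 1 library, 1 called Daxx, that without wild-type library 2 (adjusted p = 0.0408). That fit called 4.69% of all genes tested, against 1.15% in the main fit. For Daxx the adjusted p was 0.149 with the Y-linked covariate and 0.253 without the muscle-rich libraries. Ring1, a ubiquitin ligase component of Polycomb complexes, was at 13.3 to 18.5 CPM and 18.7 to 23.2 CPM, also without overlap (0.35, SE 0.11, adjusted p = 0.098). Brd2, a bromodomain reader of acetylated histones, stood at 255 to 336 CPM in wild type and 274 to 335 CPM in Arf6-null, and its ranges nearly coincided (log2 fold change 0.05, 95% interval -0.14 to 0.25). The other 14 genes of the group had adjusted p values of 0.227 to 0.962. Among them Ehmt2, a histone methyltransferase also known as G9a, was at 186 to 243 CPM in wild type and 187 to 207 CPM in Arf6-null (-0.13, 95% interval -0.30 to 0.04), and the homeobox gene Pbx2 and the nuclear receptor gene Rxrb had narrow intervals around 0 (-0.18 to 0.12 and -0.06 to 0.23).

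The second gene that rose, 2310061I04Rik, is little described. It lies at 35892677 to 35897431 on the minus strand, directly beyond the end of Dhx16, whose plus-strand gene model ends at 35892670. Its level was 17.5, 15.9, 20.4, 24.1, 21.6 and 15.4 CPM in the wild-type libraries and 41.2, 45.1, 24.9, 49.9, 29.7 and 32.7 CPM in the Arf6-null libraries. The groups did not overlap, but the lowest Arf6-null library (24.9 CPM) stood next to the highest wild-type library (24.1 CPM). The wild-type mean was 19.2 ± 3.43 CPM and the Arf6-null mean 37.3 ± 9.66 CPM (SD, n = 6 each). The log2 fold change was 0.96 ± 0.18 (SE), with an edgeR adjusted p of 0.0349. With Y-linked expression as a covariate the log2 fold change was 0.92 (adjusted p = 0.0981) and without the muscle-rich libraries it was 1.21 (adjusted p = 0.101). These are the fits that called 0.185 and 0.206% of all genes tested. The call was also lost without wild-type library 1 (adjusted p = 0.0666), 3 (0.0728), 4 (0.0573) or 6 (0.0724) and without Arf6-null library 1 (0.0758), 2 (0.0806) or 4 (0.0715). Its exons overlap those of Gm16279 on the other strand, and since the strand setting of the counting is not given in the sources used here, reads of the overlap cannot be told apart.

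**Figure D2:**
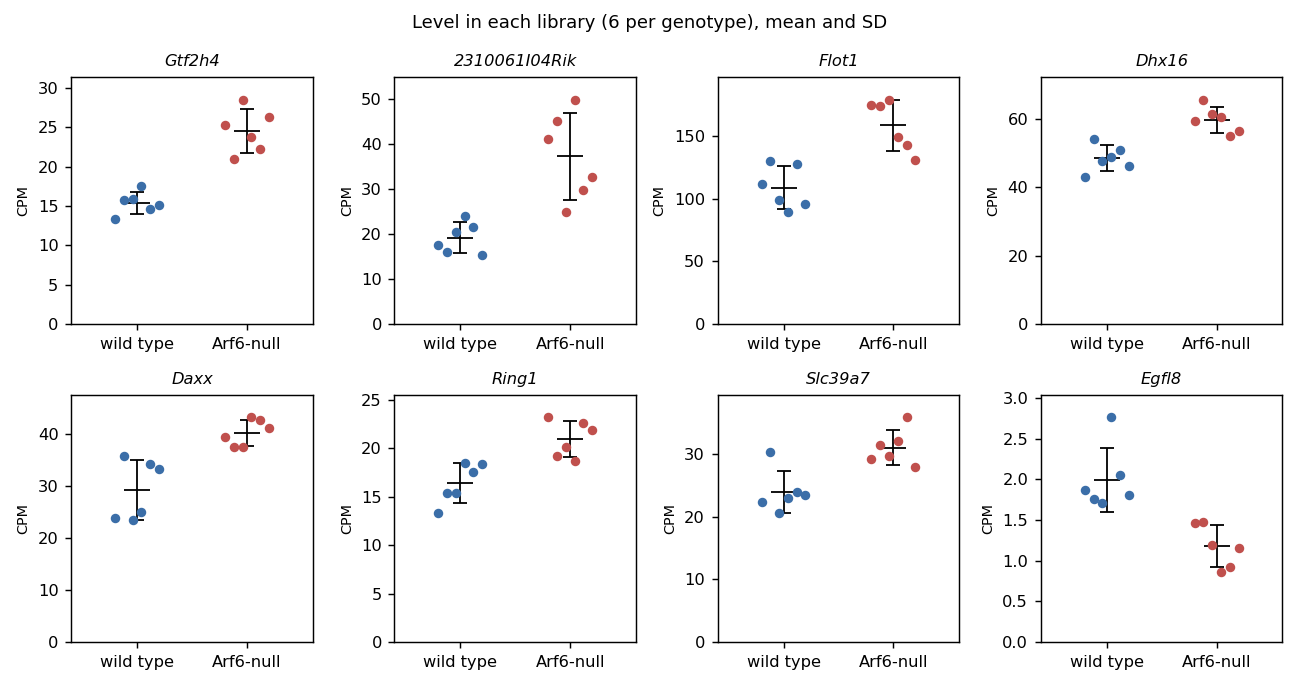
CPM in each library for 8 genes (points, 6 wild-type and 6 Arf6-null libraries), with the mean and SD (black), all axes from 0. Gtf2h4, 2310061I04Rik, Flot1, Dhx16, Daxx and Ring1 lie higher in every Arf6-null library and Egfl8 lower, whereas 1 wild-type value of Slc39a7 (30.3 CPM) lies among the Arf6-null values.

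Genes of RNA processing and translation had small differences, most of them positive and none past the threshold. Of 16 genes, 13 had a positive fold change with a median of 0.10, 5 were higher at an unadjusted p under 0.05, and 0 were lower. Of all genes tested, 47.2% were positive, 11.0% higher and 12.4% lower by the same measures. Dhx16, a DEAH-box helicase of the spliceosome and the neighbour of 2310061I04Rik, was at 43.1 to 54.0 CPM in wild type (median 48.2) and 55.0 to 65.5 CPM in Arf6-null (median 59.8). The genotypes did not overlap, with 54.0 and 55.0 CPM at their near edges (log2 fold change 0.30, SE 0.08, adjusted p = 0.0624). Of the 12 fits that left out 1 library, 1 called Dhx16, that without wild-type library 2 (adjusted p = 0.0391). That fit called 4.69% of all genes tested. The valyl-tRNA synthetases, Vars2 of mitochondria and Vars of the cytosol, had log2 fold changes of 0.35 (adjusted p = 0.067) and 0.54 (adjusted p = 0.104). For Vars, Arf6-null library 3 at 191 CPM lay far above the other Arf6-null libraries (86.0 to 119 CPM), while wild type spanned 67.6 to 101 CPM. Mrps18b, a protein of the small mitochondrial ribosomal subunit, had a wild-type mean of 25.6 CPM and an Arf6-null mean of 33.1 CPM (log2 fold change 0.37, adjusted p = 0.102). Ddx39b was at 260 to 316 CPM in wild type and 240 to 314 CPM in Arf6-null (log2 fold change -0.04, 95% interval -0.24 to 0.16). The other 11 genes had adjusted p values of 0.152 to 0.985. Dxo, which removes faulty caps from RNA, was at 16.7 to 18.2 CPM in wild type and 16.1 to 19.8 CPM in Arf6-null (95% interval -0.18 to 0.19).

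In the group of heat shock, folding and protein turnover, 8 of 9 genes had a positive fold change and the median was 0.32, the highest of the groups with more than 1 gene. None passed the adjusted threshold, 5 were higher at an unadjusted p under 0.05 and 0 were lower. Of all genes tested, 47.2% were positive, 11.0% higher and 12.4% lower by these measures. The positive genes include Hspa1a and Hspa1b, which share sequence and had wide intervals. Pfdn6, a prefoldin subunit that hands actin and tubulin to their chaperonin, was at 28.3 to 40.5 CPM in wild type and 34.9 to 44.7 CPM in Arf6-null (log2 fold change 0.32, adjusted p = 0.0951). It was called in 1 of the 12 fits that left out 1 library, that without wild-type library 2 (adjusted p = 0.0421). That fit called 4.69% of all genes tested. Bag6, which holds membrane and mislocalized proteins on the way to insertion or the proteasome, was at 165 to 218 CPM and 210 to 260 CPM (0.28, adjusted p = 0.0973). Rnf5, a ubiquitin ligase of the endoplasmic reticulum, had a log2 fold change of 0.22 (adjusted p = 0.138). Ppt2, a lysosomal thioesterase, and Gpank1 were at 0.42 and 0.33 (adjusted p = 0.161 and 0.206), Fkbpl was at 0.25 and the ubiquitin ligase gene March2 at -0.03.

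The inducible Hsp70 genes Hspa1a and Hspa1b belong to this group and varied widely between tumors of each genotype. They were chosen for naming after their values were seen. Hspa1b was at 5.69, 45.9, 3.54, 6.38, 1.19 and 1.04 CPM in the wild-type libraries and at 18.6, 2.49, 14.9, 4.56, 54.3 and 2.20 CPM in the Arf6-null libraries. Hspa1a was at 1.83, 28.3, 1.83, 2.53, 0.821 and 0.208 CPM and at 11.3, 0.726, 8.46, 2.71, 29.2 and 0.679 CPM. Both were highest in the same 4 libraries, wild-type library 2 and Arf6-null libraries 1, 3 and 5, and their log2 fold changes had intervals that cover 0 widely (0.61, -1.63 to 2.84 for Hspa1b, and 0.58, -1.95 to 3.10 for Hspa1a). A list of 10 other heat shock and immediate early genes, summed, was at 1684 to 3606 CPM in wild type and at 2522 to 3291 CPM in Arf6-null. The sum was highest in wild-type library 2 and Arf6-null library 4, but its genes peaked in different libraries. Among wild-type libraries, Jun (1412 CPM, against 210 to 315 CPM in the others) and Dnajb1 were highest in library 2. Hspa8, Hsp90aa1 and Hspe1 were highest in wild-type library 1, Hsph1 and Hspd1 in library 3, and Fos, Fosb and Egr1 in library 5. Among Arf6-null libraries, Fos (59.0 CPM), Fosb (40.0 CPM) and Jun (382 CPM) were highest in library 5. Hspa8, Hsp90aa1, Hsph1, Hspd1 and Dnajb1 were highest in Arf6-null library 4, Hspe1 in library 3 and Egr1 in library 6.

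The genes of this Hsp70 pair share sequence. Of the 50-base stretches of Hspa1b, 62.31% occur in another gene, as do 60.35% of those of Hspa1a, so the counts of the pair may be partly exchanged. Their promoters are shown because the pair moved together from tumor to tumor. The 250 bases before each start, chr17:34972157-34972406 for Hspa1a and chr17:34959239-34959488 for Hspa1b (both minus strand, RefSeq, GRCm38.p6), agree at 247 positions (98.8%). Capitals mark a paired heat shock unit (GAANNTTC) at -104 and a CCAAT box on the opposite strand, read here as ATTGG, at -67.
Hspa1a: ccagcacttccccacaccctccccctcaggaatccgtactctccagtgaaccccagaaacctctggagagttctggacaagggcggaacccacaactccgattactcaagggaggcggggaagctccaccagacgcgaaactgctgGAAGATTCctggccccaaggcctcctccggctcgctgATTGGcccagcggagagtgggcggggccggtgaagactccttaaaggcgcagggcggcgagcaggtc
Hspa1b: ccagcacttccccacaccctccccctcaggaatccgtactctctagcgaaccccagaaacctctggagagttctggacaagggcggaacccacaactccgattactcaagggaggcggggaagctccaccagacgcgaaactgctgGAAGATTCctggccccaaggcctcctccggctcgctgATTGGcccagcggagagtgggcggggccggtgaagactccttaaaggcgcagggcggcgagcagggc
The paired heat shock unit was found on either strand in 6.69% of all promoters and in 7.08% of the entries of the 99 genes. The letters searched for an interferon-stimulated core (GAAANNGAA) were in 7.13% of all promoters and 5.31% of these entries, and those for a gamma-activated site (TTCNNNGAA) in 7.02% and 7.96%. A match is a run of letters and not a measured binding site.

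**Figure D3:**
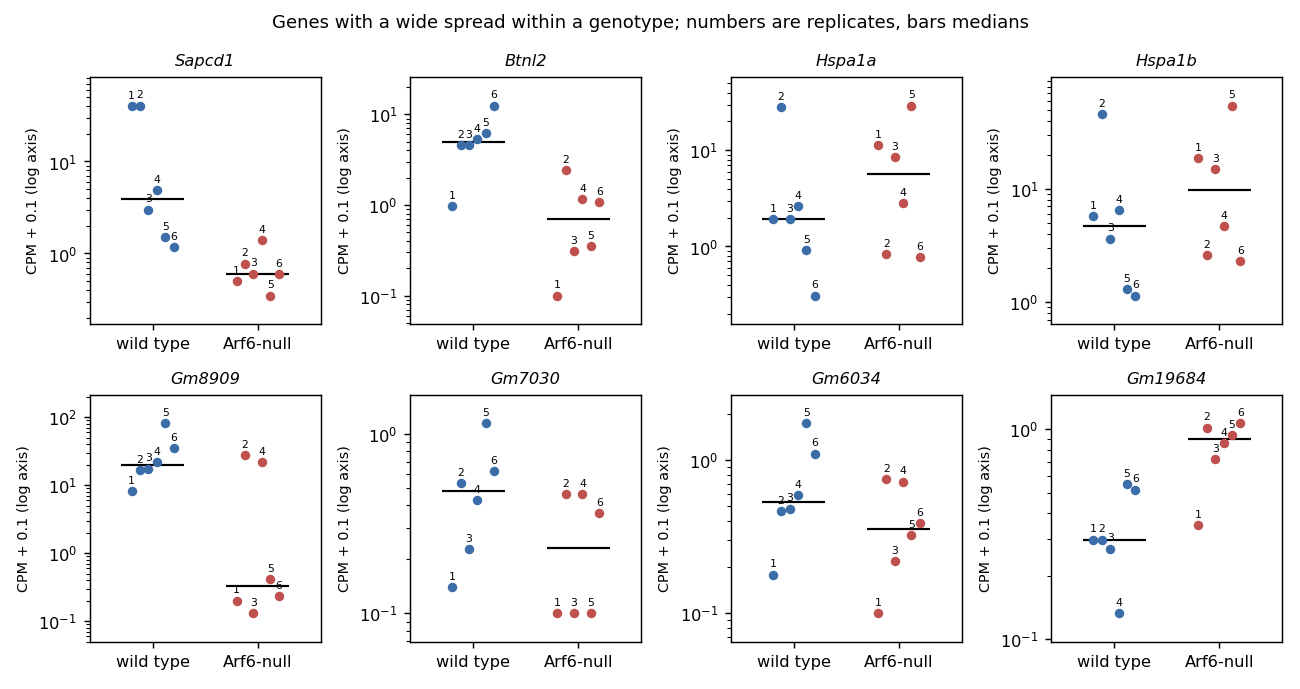
CPM + 0.1 on a log axis in each library for 8 genes with a wide spread within a genotype (numbers are the libraries of a genotype, bars the medians). Hspa1a and Hspa1b are high in the same 4 libraries, Sapcd1 is high in wild-type libraries 1 and 2, and Gm8909 is near 0 in 4 Arf6-null libraries.

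Among 12 genes of the cytoskeleton, membranes and signalling, 8 had a positive fold change with a median of 0.12, 4 were higher and 1 was lower at an unadjusted p under 0.05, and none passed the adjusted threshold. Of all genes tested, 47.2% were positive, 11.0% higher and 12.4% lower. Flot1, a scaffold of lipid rafts that takes part in endocytosis, came closest. Its level was 112, 130, 99, 89.6, 128 and 95.8 CPM over the wild-type libraries and 175, 174, 179, 150, 143 and 131 CPM in Arf6-null. The ranges touched without overlapping, and the log2 fold change was 0.54 (SE 0.12, adjusted p = 0.0544). It passed the threshold in 3 of the 12 fits that left out 1 library, without wild-type library 2 (adjusted p = 0.0330), wild-type library 5 (0.0356) or Arf6-null library 6 (0.0314). Those fits called 4.69, 3.27 and 4.12% of all genes tested. Rab11b, a GTPase of recycling endosomes, was at 47.9 to 59.2 CPM in wild type and 49.9 to 96.1 CPM in Arf6-null, where library 4 lay within the wild-type range and the other 5 above it (0.47, adjusted p = 0.0754). Rab11b was called in 1 of the 12 fits that left out 1 library, that without Arf6-null library 4 (adjusted p = 0.0467). That fit called 0.422% of all genes tested. Ppp1r18, an actin-binding regulator of protein phosphatase 1, had a log2 fold change of 0.30 (adjusted p = 0.109) and Csnk2b, the regulatory subunit of casein kinase 2, one of 0.18 (adjusted p = 0.135). Tubb5 went the other way, with 751 to 1357 CPM in wild type and 760 to 960 CPM in Arf6-null (log2 fold change -0.32, adjusted p = 0.183). The other 7 genes had adjusted p values of 0.24 to 0.986, with Prrt1, a membrane protein gene at a low level, farthest from 0 (95% interval -2.06 to 0.07). The mitotic kinesin gene Kifc1 was at 0.01 (95% interval -0.55 to 0.57) and the tubulin acetyltransferase gene Atat1 at -0.05.

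Of 8 genes of lipids, transport and metabolism, 6 had a positive fold change (median 0.16), 3 were higher and 1 was lower at an unadjusted p under 0.05. Of all genes tested, 47.2% were positive, 11.0% higher and 12.4% lower. Slc39a7, which exports zinc from the endoplasmic reticulum, was at 20.6 to 30.3 CPM in wild type and 27.8 to 35.8 CPM in Arf6-null (log2 fold change 0.37, adjusted p = 0.0752). It was called in 1 of the 12 fits that left out 1 library, that without wild-type library 2 (adjusted p = 0.0322). That fit called 4.69% of all genes tested. Of the 50-base stretches of Slc39a7, 74.49% also belong to the overlapping model Gm20427, so its counts are uncertain. Abhd16a, a phosphatidylserine lipase, had a log2 fold change of 0.31 (adjusted p = 0.121). Ddah2, a relative of the enzyme that breaks down methylated arginines, was the lower gene. It was at 66.6, 45.0, 65.1, 76.3, 24.5 and 68.4 CPM over the wild-type libraries and 34.2, 19.8, 25.7, 15.3, 23.1 and 53.1 CPM in Arf6-null. Wild-type library 5 and Arf6-null library 6 made the genotypes overlap, and the log2 fold change of -1.02 (SE 0.33) had an adjusted p of 0.102. Of the 12 fits that left out 1 library, 1 called Ddah2, that without Arf6-null library 6 (-1.29, adjusted p = 0.0389). That fit called 4.12% of all genes tested. Clic1 was at 369 to 816 CPM in wild type and 417 to 638 CPM in Arf6-null (log2 fold change -0.13, 95% interval -0.61 to 0.36). Agpat1, an enzyme of phosphatidic acid synthesis, had a log2 fold change of 0.43 (adjusted p = 0.159), and Cd320, B3galt4 and the lysosomal sialidase gene Neu1 had changes of 0.21, 0.11 and 0.08.

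**Figure D4:**
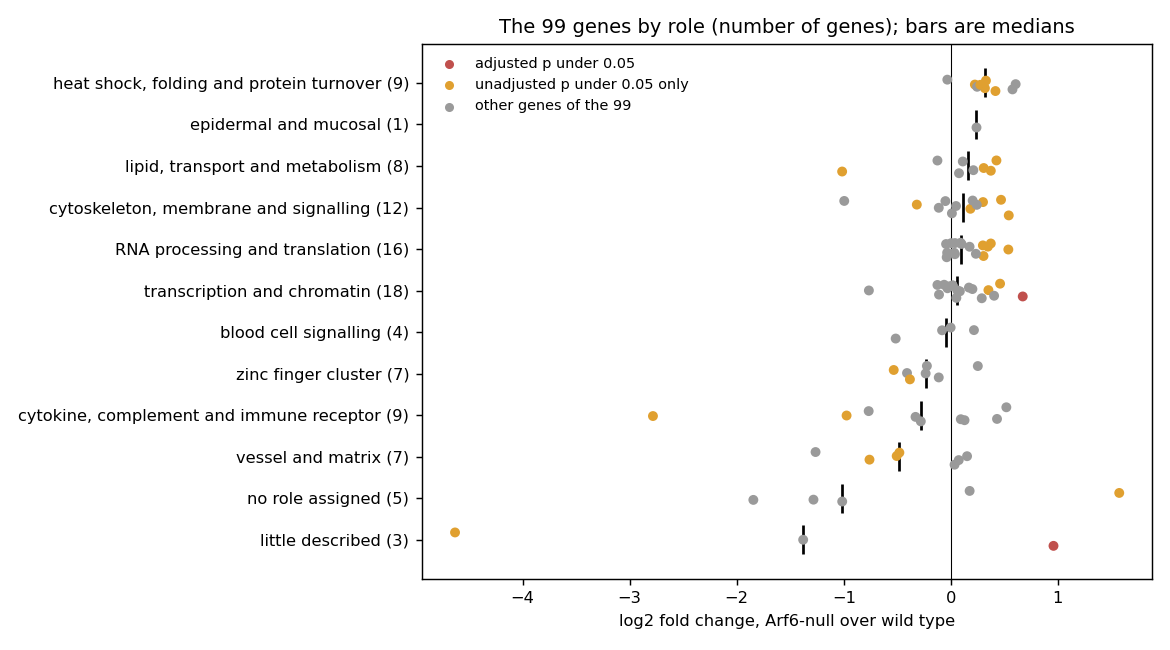
Log2 fold change (Arf6-null over wild type) of each of the 99 genes by role group, with the number of genes in parentheses, points coloured by test result and bars at the group medians. The median is 0.32 for heat shock, folding and protein turnover and lies below 0 for the zinc finger, cytokine, blood cell and vessel groups and, lowest, for the few genes that are little described (-1.38) or have no role assigned (-1.01).

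The 7 genes of vessels and matrix had a median log2 fold change of -0.48, with 3 positive, 0 higher and 3 lower at an unadjusted p under 0.05. Of all genes tested, 47.2% were positive, 11.0% higher and 12.4% lower. Egfl8, a secreted protein with EGF-like repeats, was at 1.87, 1.75, 1.70, 2.76, 2.05 and 1.80 CPM over the wild-type libraries and 1.46, 1.48, 1.19, 0.858, 0.927 and 1.15 CPM in Arf6-null. It was the gene of the 99 that lay lower in every Arf6-null library (log2 fold change -0.76, SE 0.21, adjusted p = 0.0744), at a low level, and it overlaps Agpat1 on the other strand and shares 28.52% of its 50-base stretches with Gm20460. Adamts10, a protease tied to fibrillin microfibrils, was at 33.3 to 81.4 CPM and 25.7 to 52.4 CPM (-0.51, adjusted p = 0.186). Tnxb, tenascin-X, ranged from 3.71 to 49.3 CPM in wild type and from 1.32 to 13.3 CPM in Arf6-null, with wild-type library 6 highest (-1.26, adjusted p = 0.319). Angptl4, a secreted inhibitor of lipoprotein lipase, was at 101, 715, 46, 249, 88.9 and 99.1 CPM over the wild-type libraries and at 86.0 to 334 CPM in Arf6-null. Its log2 fold change of 0.03 rested on wild-type library 2 and was 0.93 without it. Notch4, a Notch receptor of endothelium, was highest in wild-type library 2 (117 CPM) and Arf6-null library 2 (93.9 CPM) and otherwise at 13.4 to 62.2 CPM. Kank3 had a log2 fold change of -0.48 (adjusted p = 0.206) and the collagen receptor gene Ddr1 one of 0.07.

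Markers of endothelial cells and fibroblasts are given beside this group, in which Notch4, a gene of endothelium, had a positive fold change (0.15). Summed endothelial markers were at 189 to 453 CPM in wild type and 96.3 to 366 CPM in Arf6-null, 1 of 8 with a positive fold change and a median of -0.97. Summed fibroblast markers were at 6314 to 23268 CPM in wild type and 1940 to 13065 CPM in Arf6-null, 0 of 8 positive with a median of -1.30. In neither list was a gene at 0 in all libraries or past the adjusted threshold. Their part in the values of the vessel and matrix genes was not tested.

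The 9 cytokine, complement and immune receptor genes had a median log2 fold change of -0.28, with 4 positive, 0 higher and 2 lower at an unadjusted p under 0.05. Of all genes tested, 47.2% were positive, 11.0% higher and 12.4% lower. Btnl2, a butyrophilin-like protein that restrains T cells, was at 0.875, 4.50, 4.47, 5.26, 6.08 and 12.4 CPM over the wild-type libraries and 0, 2.32, 0.208, 1.06, 0.249 and 0.967 CPM in Arf6-null. Wild-type library 1 lay among the Arf6-null values and the other 5 wild-type libraries above all of them (log2 fold change -2.78, SE 0.85, adjusted p = 0.0896). The lymphotoxin genes Lta and Ltb, which shape lymphoid tissue, did not pass the test. Lta was at 0.398 to 1.09 CPM in wild type and 0.178 to 0.653 CPM in Arf6-null (-0.97, adjusted p = 0.149). Ltb was highest in library 6 of each genotype, at 24.9 and 16.6 CPM, and at 1.71 to 12.2 CPM elsewhere (-0.77, adjusted p = 0.487). Summed T cell markers were also highest in those libraries, at 182 and 139 CPM, and spanned 28.3 to 182 CPM over the wild-type and 21.9 to 139 CPM over the Arf6-null libraries, with 3 of 8 positive and none at 0 in all libraries. Their part in the Ltb values was not tested.

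Several of the remaining genes of this group spread widely within a genotype. Tnf, the cytokine that names the family, was at 0.213 to 3.62 CPM in wild type and 1.0 to 4.19 CPM in Arf6-null (log2 fold change 0.43, 95% interval -0.75 to 1.62). Ier3 was at 327 CPM in wild-type library 5 and 273 CPM in Arf6-null library 5, and at 35.5 to 172 CPM in the others (0.52, adjusted p = 0.609). The complement protease gene C2 was at 8.60 to 66.9 CPM in wild type and 17.2 to 46.6 CPM in Arf6-null (-0.33, adjusted p = 0.694). Ager, the receptor for advanced glycation end products, was at 2.94 to 6.18 CPM and 3.03 to 4.77 CPM (-0.28, adjusted p = 0.473), and Ly6g5b and Ly6g6e were at 0.09 and 0.13.

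None of the 4 genes of blood cell signalling had an unadjusted p under 0.05, and their median log2 fold change was -0.04. Myo1f, an unconventional myosin of leukocytes, was at 13.0 to 57.3 CPM in wild type and 8.74 to 29.2 CPM in Arf6-null (-0.52, adjusted p = 0.401). Aif1, the macrophage protein also called Iba-1, was at 23.9 to 73.3 CPM and 26.7 to 65.0 CPM, and the 95% interval of its log2 fold change ran from -0.64 to 0.63. Lst1, a leukocyte membrane protein, had a log2 fold change of -0.08 and Gpsm3, a regulator of G protein signalling in blood cells, one of 0.22. Summed macrophage and monocyte markers were at 1511 to 4663 CPM in wild type and 1900 to 3068 CPM in Arf6-null, with 1 of 11 positive, none at 0 in all libraries and a median log2 fold change of -0.34. Their part in these values was not tested.

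In the zinc finger cluster at the start of the interval most fold changes were negative. Of 7 genes, 6 had a negative fold change, the median was -0.24, and 2 were lower and 0 higher at an unadjusted p under 0.05, but none passed the adjusted threshold. Of all genes tested, 47.2% were positive, 12.4% lower and 11.0% higher. Zfp563 was at 6.85 to 10.4 CPM in wild type and 4.38 to 7.08 CPM in Arf6-null (-0.53, SE 0.18, adjusted p = 0.108). Its genotypes overlapped by wild-type library 2 and Arf6-null libraries 5 and 6. Zfp81 had a log2 fold change of -0.38 (adjusted p = 0.201) and Zfp414 one of -0.24 (adjusted p = 0.319). Zfp763 and Zfp101 were at 0.25 and -0.22. Zfp955a and Zfp955b, at -0.41 and -0.11, share sequence, with 51.8% of the 50-base stretches of Zfp955a found in another gene, and are uncertain for that reason.

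The fitted change farthest from 0 among the 99 genes belonged to Sapcd1, a little described gene, and its level was concentrated in 2 tumors. Wild-type libraries 1 and 2 were at 39.6 and 40.4 CPM, the other wild-type libraries at 1.08 to 4.76 CPM and the Arf6-null libraries at 0.249 to 1.29 CPM. The log2 fold change was -4.63 with an SE of 1.02 (adjusted p = 0.0525), and the genotypes overlapped at the low end. It passed the threshold in 2 of the 12 fits that left out 1 library, without wild-type library 2 (log2 fold change -4.04, adjusted p = 0.0441) or wild-type library 5 (-4.87, adjusted p = 0.0310). Those fits called 4.69 and 3.27% of all genes tested. Vwa7, which overlaps Sapcd1 on the other strand, was at 3.86 and 6.28 CPM in the same libraries, at 0.208 to 1.71 CPM in the other wild-type libraries and at 0.287 to 1.82 CPM in Arf6-null. Without a stated strand setting, reads of the overlap cannot be told apart. The next gene, the meiotic mismatch repair gene Msh5, was highest in wild-type library 2 (11.3 CPM) but as high in Arf6-null library 4 (5.98 CPM) as in wild-type libraries 1 and 4 (5.33 and 5.69 CPM). Wild-type libraries 1 and 2 had summed skeletal muscle markers of 48.0 and 26.3 CPM.

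Genes of block 5 without an assigned role, which lie among the class I genes, had uneven levels. Gm8909 was at 7.99, 16.6, 17.5, 21.9, 81.0 and 35 CPM over the wild-type libraries and at 0.1, 27.7, 0.0297, 21.8, 0.316 and 0.131 CPM in Arf6-null. Arf6-null libraries 2 and 4 were thus at wild-type levels, with 1144 and 661 counts, and the other 4 had 1 to 14 counts each (log2 fold change -1.84, SE 1.33, adjusted p = 0.425). Gm7030 was near its detection limit, with 0 counts in Arf6-null libraries 1, 3 and 5 and 15, 11 and 10 counts in Arf6-null libraries 2, 4 and 6. Gm6034 was at 0.627 to 0.653 CPM in Arf6-null libraries 2 and 4 and at 0 to 0.287 CPM in the other 4. D17H6S53E, the gene without an assigned role in block 3, had a log2 fold change of 0.18 (adjusted p = 0.415). Gm19684 went the other way from Gm8909, with 40 counts over the wild-type libraries and 161 over the Arf6-null libraries (0.0329 to 0.448 against 0.251 to 0.967 CPM, log2 fold change 1.57, SE 0.47, adjusted p = 0.0845).

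The counts of these 4 genes are uncertain. Of the 50-base stretches of Gm7030, 60.76% occur in other genes, Gm11127, H2-T23 and H2-D1 foremost, and 12.41% of those of Gm8909 occur in others such as H2-Q1, H2-Q7 and H2-D1. Gm19684 and Gm6034 share 42.57% and 41.98% of their stretches, and Gm7030 and Gm19684 also overlap on opposite strands. H2-Q1, the gene that shares most with Gm8909 (6.86% of the stretches of Gm8909), had the same pattern, at 6.88 to 56.0 CPM in wild type and at 0, 20.9, 0.030, 17.9, 0 and 0.052 CPM over the Arf6-null libraries. H2-Q2 was likewise at 14.6 and 13.4 CPM in Arf6-null libraries 2 and 4 and at 0 to 0.287 CPM in the other 4. H2-T3, not among the genes named here as sharing with Gm8909, was at a low level. It was at 0.992 and 0.594 CPM in Arf6-null libraries 2 and 4 and at 0 to 0.0226 CPM in the other 4. H2-T23 differed, at 15.3 to 68.1 CPM in wild type and 112 to 226 CPM in Arf6-null. These class I genes were picked after their values were seen.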

How the data were processed

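Bulk RNA was sequenced from 6 wild-type and 6 Arf6-null mouse melanoma tumors. A Direct-zol kit was used for RNA and TruSeq Stranded mRNA for libraries, per the labels' protocols. The submitters' processing notes name STAR 2.7.3a, featureCounts 1.6.3, DESeq2 1.26.0 and GRCm38. Not given in the sources used here are the annotation release, the strand setting and the treatment of reads with several matches. The authors deposited raw counts per gene, which were used without rounding.

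Identifiers were matched to GENCODE release M21 (55227 of 55487). Genes were filtered with filterByExpr (minimum count 10), normalized by TMM and tested in edgeR 4.0.16 (robust quasi-likelihood F test, R 4.3.3) over all 12 libraries without covariates. P-values were adjusted by Benjamini-Hochberg over 16225 genes, with a threshold of 0.05. CPM uses the scaled library sizes. The SE of a log2 fold change comes from its F value. Depth was 21007954 to 45688253 counts per library, and of the 66 pairs of libraries the closest differed by a chi-square per degree of freedom of 94.0. Shared sequence is the share of 50-base stretches of the annotated exons found in another gene. Motifs were searched on both strands of the 250 bases before each start in a RefSeq promoter table (GRCm38.p6), in which 17 of the 99 genes had no entry. The functions were tested on simulated counts.

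The 99 genes, their role groups, the marker lists and the tests were chosen with earlier results of these data known. Genes were named by rule: those past the threshold, then the smallest p up to 24, then per role group the 2 smallest p and the highest level per kilobase. Other genes of the 99 with values in the text were added after their values were seen. Alternatives were DESeq2 1.42.0, limma-voom (limma 3.58.1) with quality weights, upper-quartile and median-of-ratios scaling, a covariate of summed Y-linked expression, a filter of 10 CPM in 6 libraries, no filter, each library left out, wild-type libraries 3, 4 and 5 left out, a threshold of 0.1, and, for the choice of genes, the transcription start and filterByExpr.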

Additional observations from a re-analysis of the deposited data

Results flagged for a closer look

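Single libraries stood apart in 4 of 76 sets of 6 values examined, on the scale log2(CPM + 1), which is close to the 1 in 20 that chance gives. Egfl8 was at 1.91 in wild-type library 4 and at 1.44 to 1.61 in the other wild-type libraries. Bag6 was at 7.38 in wild-type library 1, below the 7.68 to 7.78 of the others, and at 7.72 in Arf6-null library 6, below the 7.93 to 8.03 of the others. Tubb5 was at 9.91 in Arf6-null library 3, above the 9.57 to 9.69 of the others.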

How the results depend on the processing

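The number of the 99 genes higher in Arf6-null (2) became 17 with DESeq2, 6 with limma-voom, 12 at an adjusted p under 0.1 and 0 both with the Y-linked covariate and without the muscle-rich libraries, and it was 0 to 8 with 1 library left out. The number lower (0 with edgeR, with 10 lower at an unadjusted p under 0.05) became 1 with upper-quartile scaling, 5 with DESeq2, 1 with limma-voom and 3 at an adjusted p under 0.1, and it was 0 to 1 with 1 library left out. Calls over all 16225 genes tested changed as well. DESeq2 called 938 higher and 1051 lower (12.3%), and limma-voom 483 higher and 448 lower (5.74%). The main fit called 95 higher and 91 lower (1.15%). At an adjusted p under 0.1, 8.38% of all genes were called. With the Y-linked covariate 0.185% of all genes tested were called, and without the muscle-rich libraries 0.206%. The median log2 fold change was 0.0098 with upper-quartile scaling, which placed all genes at -0.08. The 7 genes without overlap became 4 with upper-quartile scaling, 4 under the 10 CPM filter and 11 without the muscle-rich libraries, and 7 to 13 with 1 library left out. The 10 CPM filter tested 75 of the 99 genes. With fewer libraries any gene can separate more easily, and the shares over all genes tested were not computed for these settings. These counts therefore show no change particular to the 99 genes. The choice of genes gave 99 under both alternatives. Among named genes, 657 of 730 alternative values kept direction and side of the threshold. Signs turned only for genes that were not called. Angptl4 was at -0.0031 with upper-quartile scaling, -0.28 with the Y covariate, -0.45 without the muscle-rich libraries and -0.18 to 0.93 with 1 library left out. Brd2 was at -0.00024 with upper-quartile scaling and -0.0047 with the Y covariate. Lst1 was at 0.040 with limma-voom, 0.15 with the Y covariate, 0.086 without the muscle-rich libraries and -0.22 to 0.17 with 1 library left out. Ddx39b was at 0.041 without the muscle-rich libraries, and -0.077 to 0.00070 with 1 library left out, Clic1 -0.22 to 0.021 and Cdsn -0.012 to 0.47. The cause of these shifts was not tested. No paired analysis was possible because no label pairs tumors across the genotypes, although the design text calls them matched, so the tests treat the tumors as unpaired. Depth limits Gm7030, Gm6034, Gm19684 and Cdsn most, which had under 10 counts in 4 to 6 libraries.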
